A study of Homo sapiens with 20 samples.

Results

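HIF1A binding in HCT116 cells was compared between hypoxia and normoxia from the deposited peak lists, each made from 2 biological replicates that the authors had merged. HCT116 is a cell line from a human colorectal carcinoma. One list came from cells kept for 24 h at 1% O2 (hypoxia) and the other from normoxic cells, and both were called against the same HCT116 input library of genomic DNA. The lists held 4283 peaks, of the 26484 peaks in the 8 lists of the series, which also covers RKO, A549 and H460 cells. Peaks were sorted by position alone: a peak was placed in both conditions when it overlapped a peak of the other list by at least 1 bp. This gave 3959 peaks called in hypoxia only, 37 called in both and 250 called in normoxia only. The header of the hypoxia list gives its merged library a name ending in "test", which no other list of the series has, and whether that was the final merged library could not be settled from the files. No genetic change or agent other than oxygen was named for either group. A list of transcription factor peaks holds no expression value, so the identity of the cells could not be checked from it, and neither list gives a value for single replicates. Coordinates are in GRCh37 (hg19).

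HIF1A is the oxygen-regulated subunit of hypoxia-inducible factor. In oxygenated cells, prolyl hydroxylases of the EGLN family mark it for degradation through the VHL protein. In low oxygen it accumulates, pairs with ARNT and binds the hypoxia response element (HRE), whose core reads ACGTG or GCGTG. Its best known targets encode glycolytic enzymes, glucose carriers, mitophagy factors and secreted factors that act on blood vessels.

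The sequences show the HRE core and its surroundings at strong peaks of each class that held one. Each run holds 25 bases, read 5′ to 3′ on the strand that carries the core, with the HRE core nearest to the peak centre in capitals. The first set comes from the strongest peaks called in both conditions:
NARF: cgccgagcctACGTGacacgacgtc
FAM174B: cggaacgcggACGTGctgcaggcag
ANKRD37: ctaccgggagACGTGtcaaactcag
PNRC1: agcgcgcgctACGTGcccggcgctc

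They lie at chr17:80416066-80416090 for NARF, chr15:93352412-93352436 for FAM174B, chr4:186317602-186317626 for ANKRD37 and chr6:89791514-89791538 for PNRC1, all on the plus strand. The second set comes from strong peaks called in hypoxia only, at genes of glucose metabolism and at the start shared by RRP12 and PGAM1:
ENO1: gcccggggcgGCGTGgcgggcatga
RRP12: ccgcgtgcttACGTGcgctccgtga
PDK1: tacgtgagggACGTGgcgggcagca
SLC16A3: gacgtgggggACGTGaccgcgccat
PFKFB4: gacgaggcctACGTGacccgcacgg
LDHA: gggccggcggACGTGcgggaaccca

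On the plus strand these are chr1:8939063-8939087 for ENO1, chr10:99185768-99185792 for RRP12 and chr3:48594706-48594730 for PFKFB4, and on the minus strand chr2:173420791-173420815 for PDK1, chr17:80188987-80189011 for SLC16A3 and chr11:18416027-18416051 for LDHA. Of the 10 strongest peaks called in normoxia only, where many share the same tag count, only 3 held a core. The third set holds these 3:
NECAB2: gatgttgactGCGTGtttcagcgag
KPNB1: aattcccgttACGTGttcttgttgc
TIMP2: gcctaactccGCGTGctggagcggg

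These are chr16:84003339-84003363 for NECAB2 and chr17:45756758-45756782 for KPNB1 on the plus strand, and chr17:76915240-76915264 for TIMP2 on the minus strand. The next set prints the plus strand, with every core on either strand in capitals. Whole peaks are shown for a strong intronic peak of each class that holds a core and lies outside UTRs. They are the FAM174B peak called in both (chr15:93352369-93352517), the PFKFB4 peak called in hypoxia only (chr3:48594649-48594797) and the NECAB2 peak called in normoxia only (chr16:84003222-84003412):
FAM174B: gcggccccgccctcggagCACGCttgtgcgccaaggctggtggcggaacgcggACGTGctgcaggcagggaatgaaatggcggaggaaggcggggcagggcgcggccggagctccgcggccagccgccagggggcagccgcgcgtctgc
PFKFB4: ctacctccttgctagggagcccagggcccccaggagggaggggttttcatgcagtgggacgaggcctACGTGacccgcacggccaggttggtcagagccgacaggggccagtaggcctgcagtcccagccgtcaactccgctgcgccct
NECAB2: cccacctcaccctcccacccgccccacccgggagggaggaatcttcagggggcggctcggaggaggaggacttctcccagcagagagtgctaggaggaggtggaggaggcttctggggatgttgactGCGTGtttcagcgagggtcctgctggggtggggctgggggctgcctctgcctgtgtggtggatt

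The FAM174B peak holds 2 cores and 20 CpG in 149 bases, the PFKFB4 peak 1 core and 8 CpG in 149 bases, and the NECAB2 peak 1 core and 6 CpG in 191 bases.

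The first comparison asked how many binding sites were called in each condition. The hypoxia list held 3996 peaks and the normoxia list 287, a ratio of 13.9 (95% exact interval 12.3 to 15.8, counting error only). Of the normoxia peaks, 37 of 287 were also called in hypoxia (12.9%, Wilson 95% interval 9.50 to 17.3), and these made up 37 of the 3996 hypoxia peaks. Both values depended on the threshold: with a fold over the local region of at least 6 in both lists, 12 of 17 normoxia peaks were also called in hypoxia (70.6%, 46.9 to 86.7), and there were 73.6 hypoxia peaks per normoxia peak (45.8 to 127). The merged libraries held 81.5 M tags in hypoxia and 69.2 M in normoxia, and peaks took up 0.196% and 0.0116% of the tags. The lists were not called at equal sensitivity: the caller's threshold was 22 tags in hypoxia, or 2.70 tags per 10 M, and 24 tags in normoxia, or 3.47 tags per 10 M. Peak width also differed, at 148 bp in hypoxia and 190 bp in normoxia. The comparison with input removed 14298 of 19943 candidate peaks in hypoxia (71.7%) and 3909 of 4419 in normoxia (88.5%). A locus missing from a list therefore has no tag count for that condition, and no fold change can be given for peaks called in 1 condition. Of the hypoxia-only peaks, 1563 (39.5%) lay above the normoxia threshold of 3.47 tags per 10 M. That threshold was not the floor of the normoxia list, whose weakest peak had 20 tags, or 2.89 per 10 M.

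Binding at the 37 shared peaks was higher in hypoxia at most of them. The normalized tag count, the tags of a peak per 10 M tags of the library, had a median of 7.73 in hypoxia and 4.19 in normoxia. At an adjusted p under 0.05, hypoxia exceeded normoxia at 21 of the 37 (56.8%), and normoxia exceeded hypoxia at 1 (2.7%), by an exact conditional binomial test with Benjamini-Hochberg adjustment over the 37 peaks. The median log2 ratio of hypoxia over normoxia was 0.79 (95% interval of the median 0.51 to 1.03). The test sets 1 merged library against another and not the conditions, since the spread between replicates is not in the lists.

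The shared peaks with the highest hypoxia signal ranged from sites already strong in normoxia to sites near the threshold there. NARF, which encodes a nuclear prelamin A recognition factor, had 28.2 tags per 10 M in normoxia and 82.5 in hypoxia, a log2 ratio of 1.55. FAM174B, a gene for a membrane protein, went from 32.1 to 70.4 (log2 ratio 1.13). ANKRD37, which encodes an ankyrin repeat protein and is a known HIF1A target, went from 19.7 to 62.9 (1.68). These 3 sites were called in hypoxia in RKO, A549 and H460 as well. FAM174B and ANKRD37 were also called in normoxia in the 3 other lines, and NARF in RKO and A549.

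PNRC1, a nuclear receptor coactivator gene, had 8.24 tags per 10 M in normoxia and 42.9 in hypoxia (log2 ratio 2.38). MIR210HG, the host transcript of the hypoxia-induced microRNA miR-210, rose from 4.77 to 39.1 (3.04), and the MIR210 hairpin lay 429 bp from that peak's centre. AK4, a mitochondrial adenylate kinase, rose from 4.19 to 35.2 (3.07). The ratio at DENND1A, a regulator of endocytic trafficking, was the highest of the 37, at 3.09 (from 3.47 to 29.6). In normoxia the peaks at MIR210HG, AK4 and DENND1A held between 24 and 33 tags, so they stood at the edge of what was called there.

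Further strong shared peaks lay at the following genes. BHLHE40-AS1, 7599 bp from the start of the circadian repressor gene BHLHE40, had 4.19 tags per 10 M in normoxia and 31.5 in hypoxia (log2 ratio 2.91). AMPD3, an AMP deaminase, had 3.90 and 28.5 (2.87). A peak in an intron of the lncRNA ENSG00000290807 had 5.78 and 18.8 (1.70). A peak whose nearest annotated start was that of TUBD1, 49789 bp away, had 10.6 and 19.1 (0.86). That peak lay 1819 bp from the hairpin of MIR21, and it was called in no other line. All 12 of the shared peaks with the highest hypoxia signal held an HRE core.

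One shared peak was lower in hypoxia. It lay at the divergent start of IER3-AS1 and FLOT1, 1732 bp from the start of the immediate early gene IER3, and it was the strongest of the normoxia list, with 37.5 tags per 10 M in normoxia and 30.3 in hypoxia (log2 ratio -0.31, adjusted p = 0.0335, exact conditional binomial test). Counted per bp of peak width, the log2 ratio was 0.0545 and no longer passed the test (adjusted p = 0.728, same exact test), because the normoxia peak was the wider one. It was called in normoxia in RKO and A549 and in hypoxia in H460. In the other 6 peaks with a lower normalized tag count in hypoxia no difference passed the test. They were BTBD19 (4.91 in hypoxia against 5.06 in normoxia), PDXDC1 (4.66 against 6.07), HDAC4 (3.93 against 4.19), KRBA2 (3.56 against 3.90), SBSPON (3.07 against 3.47) and RHBDD1 (2.45 against 3.33). The ratio per bp was above 1 at 35 of the 37 peaks, and 27 of the 37 (73.0%) then passed as higher and 0 (0.0%) as lower. All peaks were 148 bp wide in hypoxia and 190 bp in normoxia, so counting per bp raised every ratio by the same factor. That shift was fixed by the widths and is not further evidence of higher binding.

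**Figure D1:**
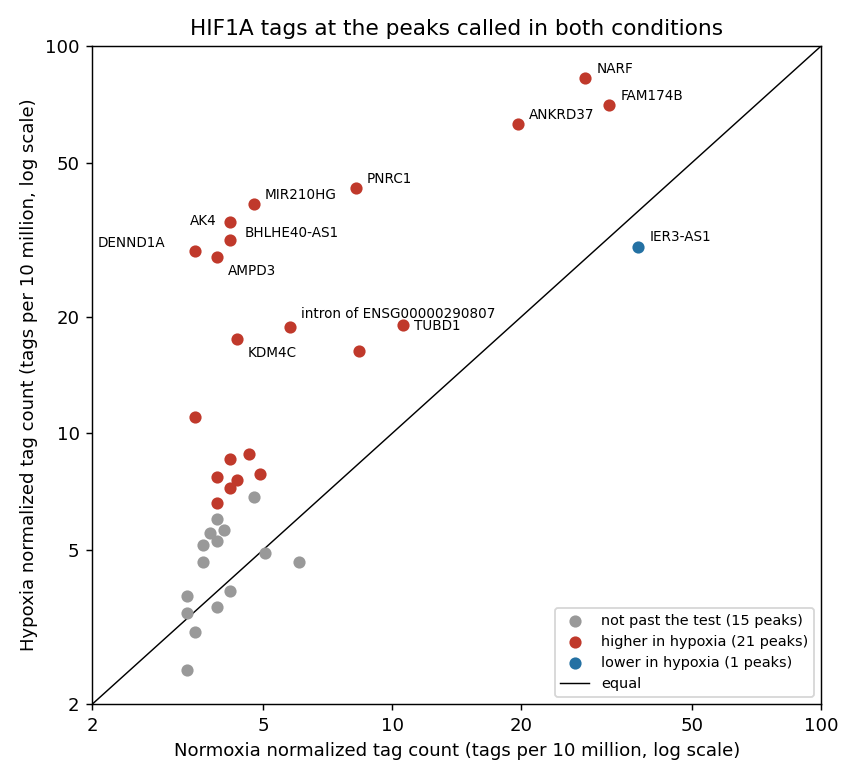
Normalized tag count, in tags per 10 M on log axes, of the 37 peaks called in both conditions, with normoxia on the x axis and hypoxia on the y axis; each point is 1 peak and the line marks equal values. The 21 red points passed the test as higher in hypoxia, IER3-AS1 is the 1 peak that passed as lower, and 15 did not pass.

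Within the shared peaks, those at gene starts and those seen in other lines had the larger ratios. The 19 within 2500 bp of a transcription start site (TSS) had a median log2 ratio of 1.13 (95% interval of the median 0.81 to 2.38), against 0.49 (-0.04 to 0.76) for the 18 farther away. The 21 also called in hypoxia in another line had a median of 1.55 (0.79 to 2.38), and the 16 called in none had 0.44 (-0.10 to 0.76). With an HRE core the median was 0.96 (0.43 to 1.70, 27 peaks), and without one it was 0.59 (-0.10 to 0.93, 10 peaks), intervals that overlap. A shared peak had to be called in normoxia as well, and the normoxia medians were close between groups. They were 4.34 tags per 10 M at a TSS and 3.975 farther away, 4.19 with another line and 4.045 with none. The hypoxia medians were 17.5 and 5.395, and 18.8 and 5.03, so these ratios mainly followed the hypoxia signal.

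**Figure D2:**
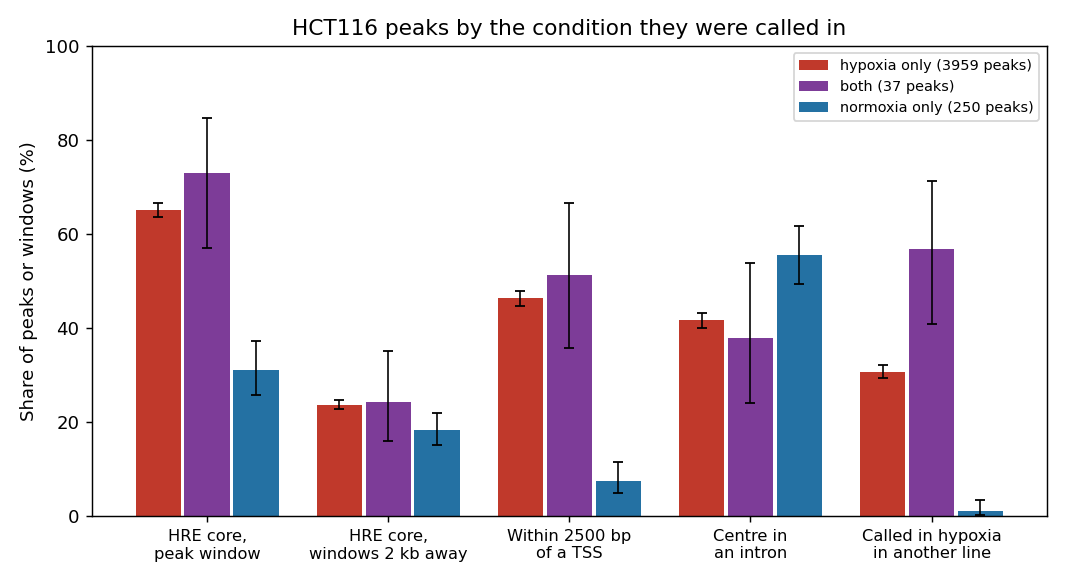
Share of HCT116 peaks (%, y axis) called in hypoxia only, both or normoxia only that hold an HRE core in the 200 bp at the centre or in windows 2000 bp away, lie within 2500 bp of a TSS, have their centre in an intron or overlap a hypoxia peak of another line; bars are shares and error bars Wilson 95% intervals. Normoxia-only peaks are below hypoxia-only peaks for the HRE core (31.2% and 65.1%), the TSS (7.6% and 46.4%) and the other lines (1.2% and 30.8%).

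The second comparison asked whether sites called in 1 condition carried the recognition sequence of HIF1A. In the 200 bp at the peak centre, ACGTG or GCGTG, on either strand, was present in 2577 of 3959 hypoxia-only peaks (65.1%, Wilson 95% interval 63.6 to 66.6), in 27 of 37 shared peaks (73.0%, 57.0 to 84.6) and in 78 of 250 normoxia-only peaks (31.2%, 25.8 to 37.2). Control windows 2000 bp upstream and downstream, as long as the first, held it in 23.8%, 24.3% and 18.4%. Hypoxia-only peaks exceeded normoxia-only peaks by 33.9 percentage points (Newcombe 95% interval 27.7 to 39.5). Shared and hypoxia-only peaks differed by 7.88 points, with an interval from -8.14 to 19.6 that includes 0. A control core with 1 base changed, ACGAG or GCGAG, which keeps the CpG, was present in 43.4% of hypoxia-only, 40.5% of shared and 26.4% of normoxia-only peaks. The HRE core was thus 4.8 points above the control in normoxia-only peaks, where the intervals of the shares overlapped (25.8 to 37.2 and 21.3 to 32.2), and 21.7 points above it in hypoxia-only peaks.

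In hypoxia-only peaks the cores clustered at the centre. Where a core was present, the nearest lay a median of 20.0 bp from the centre, and in 58.2% (56.3 to 60.1) it lay within 25 bp. In normoxia-only peaks with a core the median distance was 40.0 bp, and 32.1% (22.7 to 43.0) lay within 25 bp. At least 2 cores were present in 33.9% of hypoxia-only, 45.9% of shared and 9.20% of normoxia-only peaks. The nearest core was ACGTG rather than GCGTG in 50.8% (48.9 to 52.8) of hypoxia-only peaks with a core and in 34.6% (25.0 to 45.7) of normoxia-only ones. By the base before the core, GACGTG was the most frequent form in hypoxia-only peaks (19.9%), and GGCGTG in normoxia-only peaks (32.1%). In hypoxia-only peaks the median normalized tag count was 5.27 with TACGTG, 4.66 with GACGTG and 2.94 with GGCGTG.

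Base composition differed along with the motif. The median GC content of the 200 bp window was 62.5% in hypoxia-only, 62.0% in shared and 54.0% in normoxia-only peaks, and the median number of CpG was 10.0, 13 and 3. The part of base composition in the difference in HRE share was not tested beyond the control core.

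Other motifs were searched in the same windows. TGAGTCA or TGACTCA, the AP-1 site, which is bound by the JUN and FOS proteins, was present in 7.48% of hypoxia-only, 16.2% of shared and 1.60% of normoxia-only peaks, against 2.82%, 5.41% and 2.80% of the windows 2000 bp away. The E-box CACGTG, which contains the HRE core, was present in 9.47%, 16.2% and 3.20%, against 2.31%, 0.0% and 1.60% away from the centre. The antioxidant response motif TGACNNNGC was present in 10.3%, 18.9% and 5.60%, against 6.91%, 6.76% and 7%. The ETS motif CCGGAAG was present in 7.07%, 5.41% and 4.00%, against 0.821%, 1.35% and 1.00%. Its intervals at the centre and away from it did not overlap in hypoxia-only peaks (6.31 to 7.91 and 0.645 to 1.04) and did in normoxia-only peaks (2.19 to 7.21 and 0.428 to 2.32).

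The third comparison concerned position relative to genes. Of the hypoxia-only peaks, 1835 (46.4%, Wilson 95% interval 44.8 to 47.9) lay within 2500 bp of a TSS of a protein-coding or lncRNA gene, as did 19 of the 37 shared peaks (51.4%, 35.9 to 66.6) and 19 of the 250 normoxia-only peaks (7.6%, 4.92 to 11.6). The difference between hypoxia-only and normoxia-only peaks was 38.8 points (34.5 to 41.9). Counted from every annotated transcript start, the share was 57.7% (56.1 to 59.2) in hypoxia-only and 19.6% (15.2 to 25.0) in normoxia-only peaks. The median distance to the nearest TSS was 4156 bp in hypoxia-only, 1121 bp in shared and 21272 bp in normoxia-only peaks. Introns held the centre of 41.7%, 37.8% and 55.6% of the peaks, and regions between genes 32.0%, 40.5% and 31.2%. UTRs held 15.4% of hypoxia-only and 4.00% of normoxia-only centres, and coding exons 4.72% and 4.4%. The share of the whole genome near a TSS or in each of these features was not counted. Among hypoxia-only peaks at a TSS, 80.9% (79.1 to 82.7) held an HRE core, and among those farther away 51.4% (49.3 to 53.5) did.

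A minority of the hypoxia-only sites recurred in hypoxia in another line, and normoxia-only sites did so rarely. A hypoxia peak of RKO, A549 or H460 overlapped 1218 of 3959 hypoxia-only peaks (30.8%, Wilson 95% interval 29.3 to 32.2), 21 of 37 shared peaks (56.8%, 40.9 to 71.3) and 3 of 250 normoxia-only peaks (1.2%, 0.409 to 3.47). By line, the hypoxia-only peaks were found in RKO, the other colon line, at 15.5%, in A549 at 15.6% and in H460 at 20.1%. The lists of those lines were called at other thresholds and depths, so the order of the 3 shares is not that of the cells. In all 3 other lines 222 hypoxia-only peaks (5.61%) and 9 shared peaks (24.3%) were found. Normoxia peaks of other lines overlapped 13 of the 37 shared peaks (35.1%), 118 hypoxia-only peaks (2.98%) and 2 of the 250 normoxia-only peaks (0.800%).

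What a hypoxia-only peak held varied with its signal. The class and the tag count are not independent, since a call depends on the tags, so levels are given as a description. Hypoxia-only peaks ran from 2.09 to 92.4 tags per 10 M with a median of 3.07. Normoxia-only peaks ran from 2.89 to 5.06 with a median of 3.47, or 20 to 35 tags. Of the hypoxia-only peaks, 884 (22.3%) were stronger than the strongest normoxia-only peak. From the weakest to the strongest 25% of hypoxia-only peaks, the HRE share went from 43.4% (40.4 to 46.5) to 92.9% (91.2 to 94.4), the share at a TSS from 25.1% to 69.3% and the share called in hypoxia in another line from 5.05% to 75.8%. The control core went from 31.4% to 56.0%, and the HRE share of the windows 2000 bp away from 22.8% to 25.2%.

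The differences remained in the signal range of the normoxia-only peaks. The 1437 hypoxia-only peaks with a normalized tag count between 2.89 and 5.06, the range of the normoxia-only peaks, held an HRE core in 71.6% (69.2 to 73.9), lay at a TSS in 55.6% (53.0 to 58.2) and were called in hypoxia in another line in 29.9% (27.5 to 32.3). The differences from the normoxia-only peaks were then 40.4 points (34.0 to 46.3) for the core, 48.0 points (43.3 to 51.7) for the TSS and 28.7 points (25.4 to 31.2) for the other lines. This restriction was chosen after the data were seen.

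**Figure D3:**
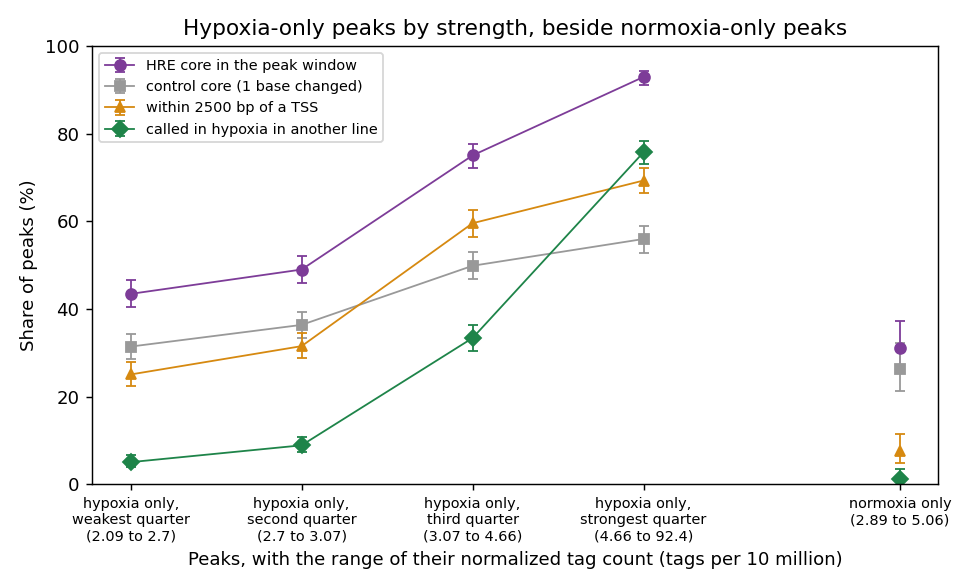
Share (%, y axis) of hypoxia-only peaks in 4 groups of rising normalized tag count (x axis, range in tags per 10 M) and of normoxia-only peaks that hold an HRE core, hold the control core, lie within 2500 bp of a TSS or are called in hypoxia in another line; points are shares and bars Wilson 95% intervals. The HRE share goes from 43.4% to 92.9% across the hypoxia-only groups and is 31.2% in normoxia-only peaks.

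Of the 12 strongest hypoxia-only peaks, 8 lay in a gene of the lists for glycolysis, glucose and lactate transport or the mitochondrial switch, or within 2500 bp of its TSS. These lists were chosen with earlier results of these data known, and the share of all peaks that meet this rule was not counted. ENO1, which encodes the glycolytic enzyme enolase, held the strongest peak of either list, with 753 tags, or 92.4 per 10 M, 169 bp from the TSS in the UTR and a fold of 52.6 over input. The peak at the divergent start of RRP12, a ribosome biogenesis gene, and PGAM1, the phosphoglycerate mutase of glycolysis, followed with 83.8 tags per 10 M, 30 bp from the RRP12 and 145 bp from the PGAM1 TSS. The peak at the start of GPI, the isomerase that follows hexokinase, had 71.5 and lay 104 bp from its TSS, in an exon of the lncRNA ENSG00000267219. It held 9 HRE cores, more than any other named peak of the hypoxia list. Beside PDK1, the kinase that blocks pyruvate entry into the tricarboxylic acid cycle, the peak had 69.4 tags per 10 M. LDHA, which converts pyruvate to lactate, had 47.0, and ALDOA, the muscle-type aldolase, had 42.8.

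Several of the strongest lay over 2500 bp from any gene-level start, from which the distances here are counted. A peak inside SLC16A3, the lactate exporter MCT4, had 61.1 tags per 10 M, 13181 bp from the TSS, while the peak at the start itself had 4.42. In an intron of PFKFB4, a regulator of fructose bisphosphate levels, a peak had 53.2, 4725 bp from the TSS. It lay within 2500 bp of another annotated transcript start of PFKFB4. A peak nearest to NDRG1, a stress-responsive gene and known HIF1A target, had 47.0 and lay 73672 bp from its TSS, between genes, with 7 HRE cores. The peak in an intron of FBXO16, 9375 bp from the start of ZNF395, had 44.6 and the highest fold over input of the list, 305, with no input tag. A peak in a coding exon of C4orf3, 3717 bp from its TSS, had 37.8 and was the only one of these 5 without an HRE core in the window. Nearer to a start, an exonic peak of the lncRNA ENSG00000231881, 1170 bp from the start of the lncRNA SCIRT, had 67.3. BNIP3L, a mitophagy receptor gene, had 63.2 at an intronic site 604 bp from its TSS. All 12 of the strongest hypoxia-only peaks were called in hypoxia in RKO, A549 and H460, and 8 of the 12 were called in normoxia in at least 1 other line.

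The gene lists, drawn from textbook knowledge with earlier results of these data known, covered 137 genes in 15 groups. A hypoxia peak lay within 2500 bp of the TSS of 52 of the 137 (38.0%), against 6.68% of all 38865 genes and 9.15% of the 20163 protein-coding genes. A normoxia peak lay there for 1 of the 137, against 0.131% of all genes. These are descriptions of chosen lists with no test. The 1 gene was IER3, by the shared peak at IER3-AS1, so every other listed gene with a peak had it in hypoxia only. An HRE core was present in 48 of the 52 peaks.

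**Figure D4:**
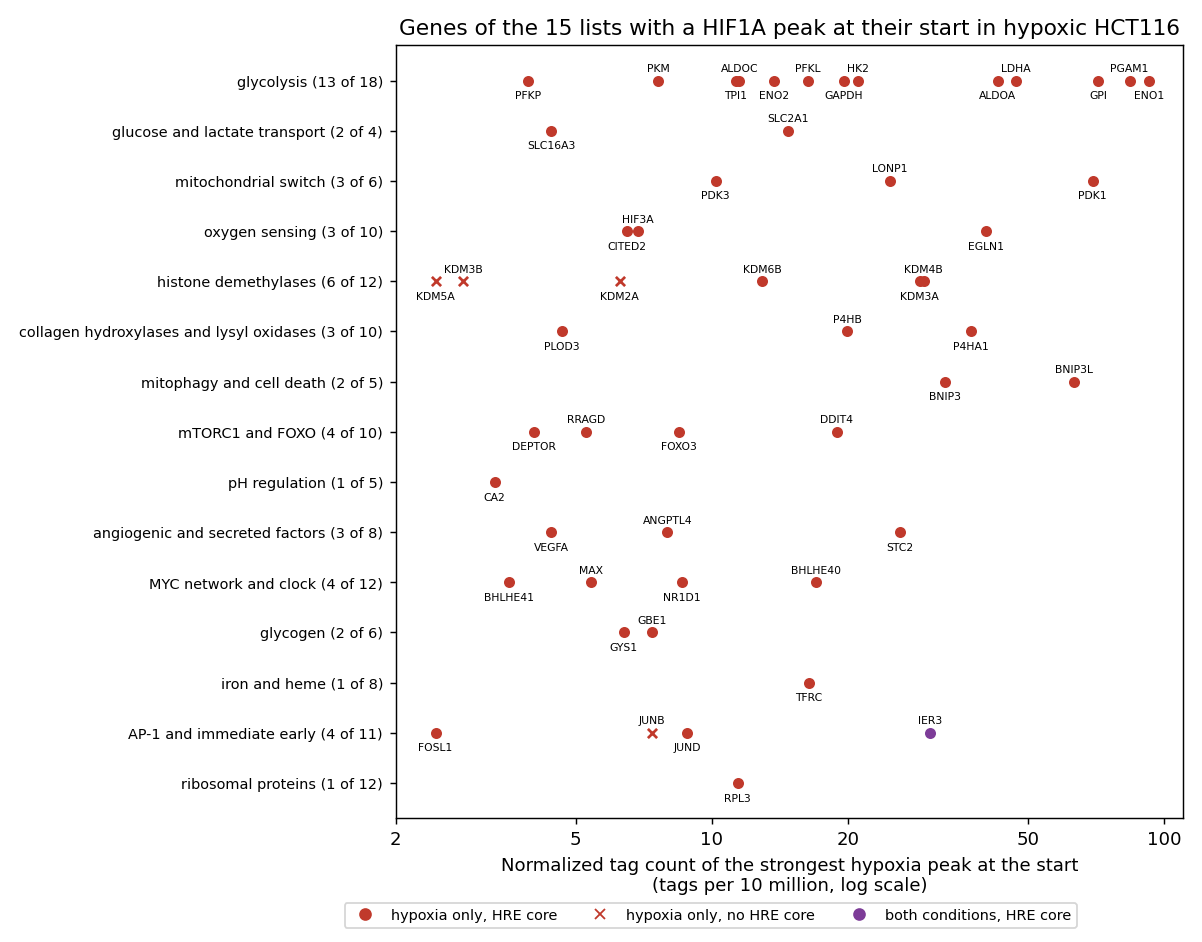
Normalized tag count (tags per 10 M, log x axis) of the strongest hypoxia peak within 2500 bp of the TSS for the 52 genes of the 15 lists that had one, by list (y axis, with the number of genes that had a peak and the list's size); colour gives the class and crosses mark peaks with no HRE core. Glycolysis has 13 of 18 genes with a peak and reaches 92.4 at ENO1.

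In glycolysis, 13 of 18 genes had a hypoxia peak at the start. Beside ENO1, PGAM1, GPI, LDHA and ALDOA, these were HK2, the first enzyme of the pathway (21.0 tags per 10 M), GAPDH (19.6), the liver-type phosphofructokinase gene PFKL (16.3), the neuronal enolase gene ENO2 (13.7), ALDOC (11.5), TPI1 (11.3), PKM, the pyruvate kinase of most tissues (7.60), and PFKP (3.93). All 13 held an HRE core. HK1, PFKM and PFKFB3 had no peak within 10000 bp or at any annotated start. PGK1 had one of 14.5 at another annotated transcript start, and PFKFB4 the intronic peak given above.

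Among carriers, SLC2A1, the glucose transporter GLUT1, had 14.7 tags per 10 M at its start. Of the mitochondrial switch genes, 3 of 6 had a peak: PDK1, the mitochondrial protease gene LONP1 (24.7) and PDK3 (10.2). Of the oxygen sensing genes, 3 of 10 did. They were EGLN1, the main HIF prolyl hydroxylase (40.4), HIF3A (6.87) and CITED2, a competitor of HIF1A for its coactivator (6.50). HIF1A itself, ARNT, VHL, EGLN2, EGLN3 and HIF1AN had no hypoxia peak within 10000 bp or at any annotated start. EPAS1, which encodes HIF2A, had one of 2.70 at another start. With every transcript start counted, a normoxia peak lay at 1 of the 10 oxygen sensing genes. The mitophagy list had BNIP3L and BNIP3 (32.7), while FUNDC1, BBC3 and PMAIP1 had none.

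Histone demethylases use oxygen as a substrate. Of the 12, 6 had a peak: KDM4B (29.4), KDM3A (28.8), KDM6B (12.9), KDM2A (6.26), KDM3B (2.82) and KDM5A (2.45), and the last 3 held no HRE core. KDM4C had a peak of 17.5 called in both conditions, 4516 bp from its gene-level start, with 4.34 in normoxia (log2 ratio 2.02). A hypoxia-only peak of 14.5 lay at another annotated start of KDM4C. Of the collagen hydroxylases and lysyl oxidases, 3 of 10 had a peak: P4HA1 (37.3) and P4HB (19.9), subunits of collagen prolyl hydroxylase, and PLOD3 (4.66). P4HA2 had 20.5 at another start and PLOD1 27.8 within 10000 bp. LOX, LOXL1 and LOXL2 had none.

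Growth and stress regulators also had peaks. In the mTORC1 and FOXO list these were DDIT4, an inhibitor of mTORC1 (18.9), FOXO3 (8.46), RRAGD, a GTPase that recruits mTORC1 to lysosomes (5.27), and DEPTOR (4.05), 4 of 10 genes. In the MYC network and clock list they were the repressor BHLHE40 (17.0), NR1D1, which encodes REV-ERB alpha (8.59), MAX, the partner of MYC (5.40), and BHLHE41 (3.56), 4 of 12. MXI1, an antagonist of MYC, had 22.1 within 10000 bp, and that peak lay at another annotated transcript start of the gene. Of the secreted factors, 3 of 8 had a peak: STC2, stanniocalcin 2 (26.1), ANGPTL4 (7.97) and VEGFA, the main angiogenic growth factor (4.42), while the peak within 10000 bp of the start of ADM was the shared AMPD3 peak given above.

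The remaining lists had fewer. The glycogen list had GBE1, the branching enzyme (7.36), and GYS1, glycogen synthase (6.38), 2 of 6 genes. In iron and heme, 1 of 8 had a peak, the transferrin receptor gene TFRC (16.4). In pH regulation, 1 of 5 did, CA2 (3.31), while CA9 and CA12, carbonic anhydrases known as hypoxia markers in other cells, had none within 10000 bp. The AP-1 list had IER3, JUND (8.83), JUNB (7.36, no HRE core) and FOSL1 (2.45), 4 of 11. Of 12 ribosomal protein genes, 1 had a peak, RPL3 (11.4), and 1 of 12 is a share of 8.33%, close to the 9.15% of protein-coding genes.

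Some genes held several hypoxia peaks. HDAC4, a histone deacetylase gene, and HOOK2, a microtubule linker gene, each had 6 within the gene or 10000 bp of it, and CUX1, SERTAD2, VPS13B and VTI1A each had 5. These genes span between 110 and 864 kb with their listed boundaries, and their peaks reached at most 11.3 tags per 10 M, at VTI1A. One HDAC4 peak was the shared one described above. The listed span of HOOK2 encloses JUNB, and 4 of the 6 HOOK2 peaks also lay within JUNB or 10000 bp of it. An HRE core was present in 3 of the 6 at HDAC4 and 4 of the 6 at HOOK2. It was present in 4 of the 5 at SERTAD2, 3 of the 5 at CUX1 and 2 of the 5 at VPS13B and at VTI1A.

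The normoxia-only peaks lay mostly away from starts, and 31.2% lay between genes, close to the 32.0% of hypoxia-only peaks. The strongest normoxia-only peak was in a UTR of CDK10, a cyclin-dependent kinase gene, with 35 tags, or 5.06 per 10 M. It was followed by a peak in HCFC1R1, 477 bp from the start of the RNA export gene THOC6 (4.63), and by peaks in NECAB2 (4.48), KPNB1, which encodes importin beta (4.48), and CFD, complement factor D (4.48). Peaks in HSPA12A, beside LINC02674 and CRISPLD2, in SP2 and in TIMP2, a metalloproteinase inhibitor gene, each had 4.34. These 10 end inside a tie, since 12 peaks had 4.34 and 7 of them are not named. Of all 17 peaks at or above 4.34, 6 held an HRE core, among them those in NECAB2, KPNB1 and TIMP2, and 0 were called in another line in either condition. Input held 0 to 2 tags at the 10 named peaks, where the lists write 0.5 for no tag.

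Few normoxia-only peaks lay near a hypoxia peak, and few hypoxia peaks lay near each other. Of the 250, 5 (2.00%) had a hypoxia peak centre within 1000 bp and 20 (8.00%) within 10000 bp, and the median distance to the nearest was 131 kb. Among the 3996 hypoxia peaks, 113 (2.83%) had another hypoxia peak within 1000 bp and 397 (9.93%) within 10000 bp. By the rule of the classes, no normoxia-only peak overlaps a hypoxia peak. The density of normoxia-only peaks differed between chromosome arms: 17q held 26 of them, 8q held 34, 16q held 13 and 10q held 17. Per Mb of known sequence this was 5.29 times the genome-wide density on 17q, 3.89 times on 8q, 3.36 times on 16q and 2.09 times on 10q. The 6 densest arms, which also include 19p and 3q, made up 14.8% of the sequence and held 44% of normoxia-only peaks and 23.4% of hypoxia-only peaks. These arms were chosen for their normoxia-only density.

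Hypoxia-only peaks over 2500 bp from a TSS were counted on the same arms, with and without a core, a split made after the data were seen. The 1032 with no HRE core had 3.16 times their genome-wide density on 8q, 2.38 times on 10q, 2.32 times on 17q and 0.940 times on 16q. The 1092 with a core had 1.75 times on 8q, 1.38 times on 10q, 2.33 times on 17q and 1.42 times on 16q, and their densest arm was 19p at 4.36 times. The group without a core was thus the denser one on 8q and 10q, the group with a core on 16q, while on 17q the values were close. On the 6 arms the input held 0.827 tags per normoxia-only peak, against 0.750 on all others. At the hypoxia-only peaks over 2500 bp from a TSS it held 0.672 against 0.698 without a core and 1.21 against 0.948 with one. A call required 7 fold over input, which limits the input under a peak, so these means cannot show the input level of an arm. The copy number of these arms in HCT116 was not measured here, and its part and that of the input signal in these densities were not tested.

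**Figure D5:**
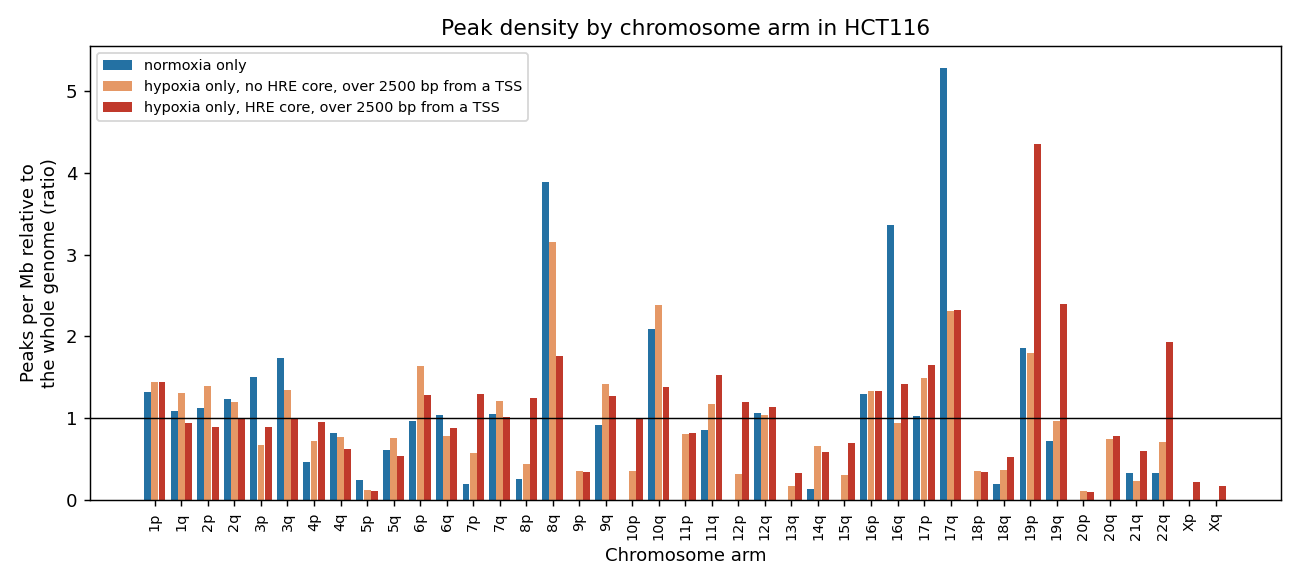
Peak density (peaks per Mb of known sequence over the genome-wide value, y axis) on each chromosome arm (x axis) for normoxia-only peaks, hypoxia-only peaks with no HRE core over 2500 bp from a TSS, and hypoxia-only peaks with a core at the same distance; the line marks the genome-wide density. Normoxia-only peaks reach 5.29 on 17q and 3.89 on 8q, and hypoxia-only peaks with a core reach 4.36 on 19p.

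Compared with the other lines, HCT116 had many hypoxia sites for each normoxia site. The number of hypoxia peaks per normoxia peak was 13.9 for HCT116, 10.3 for A549, 4.38 for RKO and 3.44 for H460. The share of normoxia peaks also called in hypoxia was 12.9% in HCT116, a difference of -20.4 points from A549 (95% interval -25.7 to -14.5), and above RKO by 8.21 points (4.67 to 12.7) and H460 by 8.90 points (5.26 to 13.4). Of hypoxia-only peaks, the HCT116 share with an HRE core, 65.1%, lay below the 77.1% of H460 and above the 51.5% of A549 and the 30.3% of RKO. Of normoxia-only peaks the share was 31.2% in HCT116, above RKO (15.8%) by 15.4 points (9.73 to 21.6) and H460 (12.8%) by 18.4 points (12.5 to 24.6), while the difference from A549 (24.2%) had an interval that includes 0 (-0.222 to 14.3). The authors set the fold over input line by line, so these differences hold for the lists as called.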

How the data were processed

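HIF1A ChIP-seq of HCT116 cells was used, with 2 replicates per condition and 1 input. The authors aligned reads to GRCh37 (hg19) with Bowtie2 2.2.9, filtered on mapping quality, merged replicates and called peaks with HOMER 4.3 (versions from the submitters' processing notes). Each list required 7 fold over input, 3 fold over the local region and a set false discovery rate.

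Per the file headers, the deposited signal column is the normalized tag count per 10 M tags. The deposited tag scores of ChIP and input are scaled to the smaller library. The deposited fold ratio columns compare a peak with input and with its surroundings, and the authors' p-value columns were not used. Unscaled tags were recovered from that column and the library total of the header (81.5 M in hypoxia, 69.2 M in normoxia), and their sum equalled the header's tags in peaks. No column of another series was present.

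The gene set was GENCODE release 44 on GRCh37, with 38865 genes of the protein-coding and lncRNA types, and chromosome lengths were checked against the peaks. Motifs were searched on both strands in 200 bp windows. The E-box contains the HRE core, so those shares overlap. Sequences were read from the GRCh37 assembly with pysam 0.24.0, and statistics used scipy 1.17.1 in Python 3.11.15.

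Shares carry Wilson and differences Newcombe 95% intervals, which cover counting error only, since peaks are not replicates. Shared peaks were tested with a two-sided exact conditional binomial test, given the library totals, and the test was checked on simulated Poisson tags. These tags had no replicate spread and no selection by peak calling, so the check covers counting error only. Named were the 12 strongest shared and hypoxia-only peaks, shared peaks lower in hypoxia, the 5 strongest hypoxia-only peaks away from a TSS, the 10 strongest normoxia-only peaks (a tie at the last value broken by position), list genes with a peak and the 5 genes with most peaks, with ties. The members and lists were chosen with earlier results of these data known. Alternatives were a fold of 14 over input, a local fold of 6, other overlap rules, a 100 bp window, other TSS definitions and tags per bp.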

Additional observations from a re-analysis of the deposited data

How the results depend on the processing

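No paired analysis was possible because the peak lists used here hold merged replicates of each condition. For the same reason no replicate could be left out, and counting error is the only error given. Of 62 values that answer a comparison, 19 stayed within 1.5 times the count or within the interval of the reported value and 43 moved, as follows. The causes were not tested.

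With both lists held to an input fold of 14 there were 1607 hypoxia and 95 normoxia peaks, of which 1595 were hypoxia only, 12 shared and 83 normoxia only. A local fold of at least 6 left 1252 and 17 peaks, with 1240 hypoxia only, 12 shared and 5 normoxia only. The share of normoxia peaks also called in hypoxia was then 70.6% instead of 12.9%. In hypoxia-only peaks the HRE share was 68.5% at the input fold of 14, 90.4% at the local fold of 6, 53.0% in a 100 bp window and 71.6% in the signal range of normoxia-only peaks. Their TSS share was 48.2%, 66.5%, 57.7% with every transcript start, 40.8% within 1000 bp and 55.6% in that range. Their share in other lines was 37.1%, 69.4% and, with centres within 1000 bp, 35.5%, and their median normalized tag count was 3.43 and 6.50. For shared peaks the HRE share in a 100 bp window was 54.1%, the TSS share 66.7% and 75%, the share in other lines 75% at the input fold of 14, and the median normalized tag count 24.6 and 19.0. For normoxia-only peaks the HRE share was 20.0% (1 of 5) at the local fold of 6 and 16.8% in a 100 bp window, and the TSS share was 4.82%, 0.0%, 19.6% with every transcript start and 3.60% within 1000 bp. Their share in other lines was 0.0% at the local fold of 6 and 4.4% with centres within 1000 bp. Under the input fold, the local fold and the range of signal, hypoxia-only peaks stayed above normoxia-only peaks in all 3 shares, by at least 28.7 points.

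Counted per bp, which raises every ratio by the same factor, the median log2 ratio at shared peaks was 1.15, and 0 peaks instead of 1 were lower in hypoxia. The log2 ratio turned positive at IER3-AS1 (0.0545), BTBD19 (0.32), HDAC4 (0.26), KRBA2 (0.23) and SBSPON (0.18), of which only IER3-AS1 had passed the test, and 6 further peaks passed as higher. A normoxia peak lay at 2 of the listed genes with every transcript start and at 5 within 10000 bp.

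The main limits are the unequal tag thresholds of the lists, the different peak widths, the single shared input with few tags under each peak, and the lack of any normoxia value where no peak was called.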
